A study of Mus musculus with 3 samples.

Results

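The CC chemokines examined here are the 10 genes *Ccl2*, *Ccl3*, *Ccl4*, *Ccl5*, *Ccl6*, *Ccl7*, *Ccl8*, *Ccl9*, *Ccl12* and *Ccl24*, taken by gene symbol, and all 10 have a row among the 31053 genes of the count matrices. They were followed through 3 droplet scRNA-seq libraries of live cells from the leukocyte-enriched brain tissue around a glioblastoma (GBM) implant, each a pool of C57BL/6 female mice aged 6 to 8 weeks. All mice carried a graft of luciferase- and GFP-expressing BTIC0309 cells in the right striatum, and these are brain tumor-initiating cells (BTICs) of NPcis mice, which bear *Nf1* and *Trp53* mutations. Vehicle control replicate 2 came from mice injected with saline, and niacin replicates 1 and 2 from mice given 100 mg/kg niacin daily by intraperitoneal injection from day 7. All were killed 4 weeks after implantation. A pool held 5 mice by the study's methods and 4 brain tissues by the labels, so a library is a pool and not an animal, the graft is a single cell line, and the spread between libraries is a spread between pools.

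CC chemokines are small secreted proteins with adjacent cysteines near the amino terminus that draw leukocytes through G protein-coupled receptors. *Ccl2*, *Ccl7*, *Ccl8* and *Ccl12* are monocyte chemoattractants, of which *Ccl2*, *Ccl7* and *Ccl12* act on CCR2, while *Ccl3*, *Ccl4* and *Ccl5* are inflammatory chemokines that draw monocytes and T cells, of which *Ccl3* and *Ccl5* act on CCR1. *Ccl6* and *Ccl9* are rodent ligands of CCR1, and *Ccl24*, an eotaxin, acts on CCR3.

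The feature that names the family is present in the coding sequence of every member, and the windows of 9 members below show how closely related those stretches are. Each line gives 30 bases of the coding strand around the 2 adjacent cysteine codons, which are in capitals, from GENCODE transcripts on GRCm38 (mm10).
*Ccl2*: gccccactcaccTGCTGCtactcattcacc
*Ccl7*: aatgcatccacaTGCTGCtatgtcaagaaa
*Ccl8*: gctccagtcaccTGCTGCtttcatgtacta
*Ccl12*: accccagtcacgTGCTGTtataatgttgtt
*Ccl4*: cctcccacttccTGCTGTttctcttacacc
*Ccl5*: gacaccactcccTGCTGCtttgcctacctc
*Ccl6*: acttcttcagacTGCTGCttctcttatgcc
*Ccl9*: gactcttcagatTGCTGCctgtcctataac
*Ccl24*: atcccctcatctTGCTGCacgtcctttatt
The codons lie in exon 2 of 3 in 8 members, for example at chr11:82036506-82036511 (plus strand) in *Ccl2* and chr5:135572665-135572670 (minus strand) in *Ccl24*. In *Ccl6* (chr11:83589386-83589391, minus strand) and *Ccl9* (chr11:83575926-83575931, minus strand), the rodent CCR1 ligands, they lie in exon 3 of 4. No stretch of 91 bases, the length of the sequenced read, from a member's transcript occurs in another gene's transcript, so the members' counts are not split between near-identical copies of that length.

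The 10 genes form 2 clusters and a single gene. *Ccl2*, *Ccl7*, *Ccl12* and *Ccl8*, the monocyte chemoattractants, lie within 81.2 kb of chromosome 11 (chr11:82035571-82116799), and *Ccl5*, *Ccl9*, *Ccl6*, *Ccl3* and *Ccl4* within 138.9 kb of the same chromosome (chr11:83525778-83664683). *Ccl24* lies on chromosome 5. Some neighbours, such as *Ccl12* and *Ccl8*, had their highest mean levels in different classes of cells and others, such as *Ccl3* and *Ccl4*, in the same class.

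Of 6947 barcodes, 5528 passed the limits of 200 detected genes and 20% mitochondrial counts. Cells were put in 10 classes by counts of at least 3 markers from lists of lineage genes that hold none of the members. Those with too few markers or with a tie between lists, 739 cells (13.4%, median 747 UMIs), were left unassigned. A unique molecular identifier (UMI) is a captured RNA molecule, and levels are given as CPM, a gene's UMIs scaled to 1000000 UMIs of a class in a library, so that fewer expressing cells and less RNA per cell cannot be told apart in a class level. Library totals ran from 8301228 to 10359526 UMIs. Libraries shared barcodes: 924 barcodes occurred in more than 1 library and 452 in all 3, and 2050 of the passing cells (37.1%) carried such a barcode. Of these, 1183 cells were not the deepest copy of their barcode. They had a median of 647 UMIs against 10915 in the deepest copies and held 3.57% of the UMIs, and 974 of 982 pairs of copies fell in the same class. Several results that rest on such cells are also given with the deepest copies alone or without shared barcodes.

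The microglia-like class held 459 cells in the vehicle library and 935 and 1201 in niacin replicates 1 and 2. The monocyte/macrophage-like class held 282, 126 and 128 cells in that order, of which 276, 65 and 74 were deepest copies. Neutrophil-like cells numbered 102, 80 and 71, T cell-like cells 208, 154 and 176, and natural killer cell-like cells 86, 9 and 21. The microglial markers summed to 11083 to 14410 CPM in microglia-like cells and to 130 to 261 CPM in monocyte/macrophage-like cells. The monocyte and macrophage markers summed to 3102 to 6063 CPM in the latter and to 165 to 294 CPM in microglia-like cells.

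Among the 4 monocyte chemoattractants, *Ccl2* and *Ccl12* had their highest mean level in microglia-like cells, and *Ccl7* and *Ccl8* in monocyte/macrophage-like cells, of the 6 classes with at least 10 cells per library. The smaller basophil- or mast cell-like class lay higher for *Ccl2* and *Ccl7* in niacin replicate 1, at 562 and 360.3 CPM, and for *Ccl2* in niacin replicate 2. *Ccl12* in microglia-like cells was at 800.1 CPM in the vehicle library, 566 CPM in niacin replicate 1 and 635 CPM in niacin replicate 2, from 1886, 2386 and 2983 UMIs. In monocyte/macrophage-like cells *Ccl12* was at 148, 148 and 22.1 CPM, below every microglia-like value. The niacin replicate 1 value of 148 CPM rested on a single cell, which held 74 of its 82 UMIs. T cell-like and neutrophil-like cells had 4.05 to 18.1 CPM of *Ccl12*, close to the 2.71 to 12.1 CPM of choroid plexus-like cells, which serve here as a measure of free RNA.

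*Ccl2* was at 332, 221 and 215 CPM in microglia-like cells and at 354, 106 and 36.4 CPM in monocyte/macrophage-like cells, so the classes overlapped, with the vehicle library at the top of both. *Ccl7* was at 106, 18.0 and 11.7 CPM in monocyte/macrophage-like cells and at 37.3, 7.59 and 8.73 CPM in microglia-like cells. Both vehicle control values of *Ccl7* came mostly from single cells, with 154 of 239 UMIs in 1 monocyte/macrophage-like cell and 55 of 88 UMIs in 1 microglia-like cell. With the deepest copies alone, the niacin values in monocyte/macrophage-like cells were 103 and 17.9 CPM for *Ccl2* and 11.8 and 2.75 CPM for *Ccl7*. *Ccl8* was scarce, with 34 UMIs over the 3 libraries in monocyte/macrophage-like cells, 24 of them in 1 cell of the vehicle library, and 2 UMIs in microglia-like cells. No UMI of *Ccl7* or *Ccl8* was counted in neutrophil-like cells.

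The macrophage inflammatory proteins *Ccl3* and *Ccl4* also had their highest mean in microglia-like cells of those 6 classes, with *Ccl4* higher in natural killer cell-like cells of the vehicle library (691 CPM) and both higher in basophil- or mast cell-like cells of niacin replicate 2 (830.0 and 887 CPM). *Ccl3* was at 546, 487 and 579 CPM there, and at 75.6, 155 and 202 CPM in monocyte/macrophage-like cells, with no overlap between the classes. In neutrophil-like cells *Ccl3* was at 384 CPM in the vehicle library but at 18.0 and 8.11 CPM in niacin replicates 1 and 2, so the libraries did not come near each other. *Ccl4* followed, at 498, 381 and 494 CPM in microglia-like cells, 138, 19.8 and 55.9 CPM in monocyte/macrophage-like cells and 355, 14.4 and 4.05 CPM in neutrophil-like cells. T cell-like cells had 41.7 to 53.5 CPM of *Ccl4*, a narrow range over the 3 libraries. In B cell-like and choroid plexus-like cells *Ccl3* and *Ccl4* were at 17.9 CPM or lower.

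The lymphocyte chemokine *Ccl5* was at 2184, 2377 and 2855 CPM in T cell-like cells and at 4401, 9626 and 9486 CPM in natural killer cell-like cells, the latter from 86, 9 and 21 cells. Monocyte/macrophage-like cells had 376, 55.9 and 33.8 CPM of *Ccl5*. With the deepest copies alone, the 2 niacin values fell to 9.86 and 4.13 CPM (5 and 3 UMIs), while the vehicle control value was 377 CPM. Microglia-like cells had 39.0, 20.6 and 58.8 CPM of *Ccl5*, and 145 of the 276 UMIs behind the last value were in 1 cell.

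The CCR1 ligands *Ccl6* and *Ccl9* were counted in all 3 myeloid classes. *Ccl6* was at 275, 562 and 610.1 CPM in neutrophil-like cells, 413, 512 and 457 CPM in monocyte/macrophage-like cells and 82.7, 76.4 and 100.6 CPM in microglia-like cells, and at or below 12.7 CPM in T, B and choroid plexus-like cells. *Ccl9* was at 223, 247 and 269 CPM in monocyte/macrophage-like cells, 82.3, 79.98 and 98.0 CPM in microglia-like cells, and 54.2, 46.9 and 4.05 CPM in neutrophil-like cells. The myeloid ranges of *Ccl9* did not overlap, and monocyte/macrophage-like cells lay highest in every library. The eotaxin *Ccl24* was at 517, 90.2 and 329 CPM in monocyte/macrophage-like cells and at 16.1, 7.83 and 8.31 CPM in microglia-like cells. Its UMIs came from few cells, with 588 of its 1170 vehicle control UMIs in 2 cells and 186 of its 253 niacin replicate 2 UMIs in 1. With the deepest copies alone its monocyte/macrophage-like levels were 518, 7.89 and 272 CPM, so the niacin replicate 1 value fell into the microglia-like range.

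**Figure D1:**
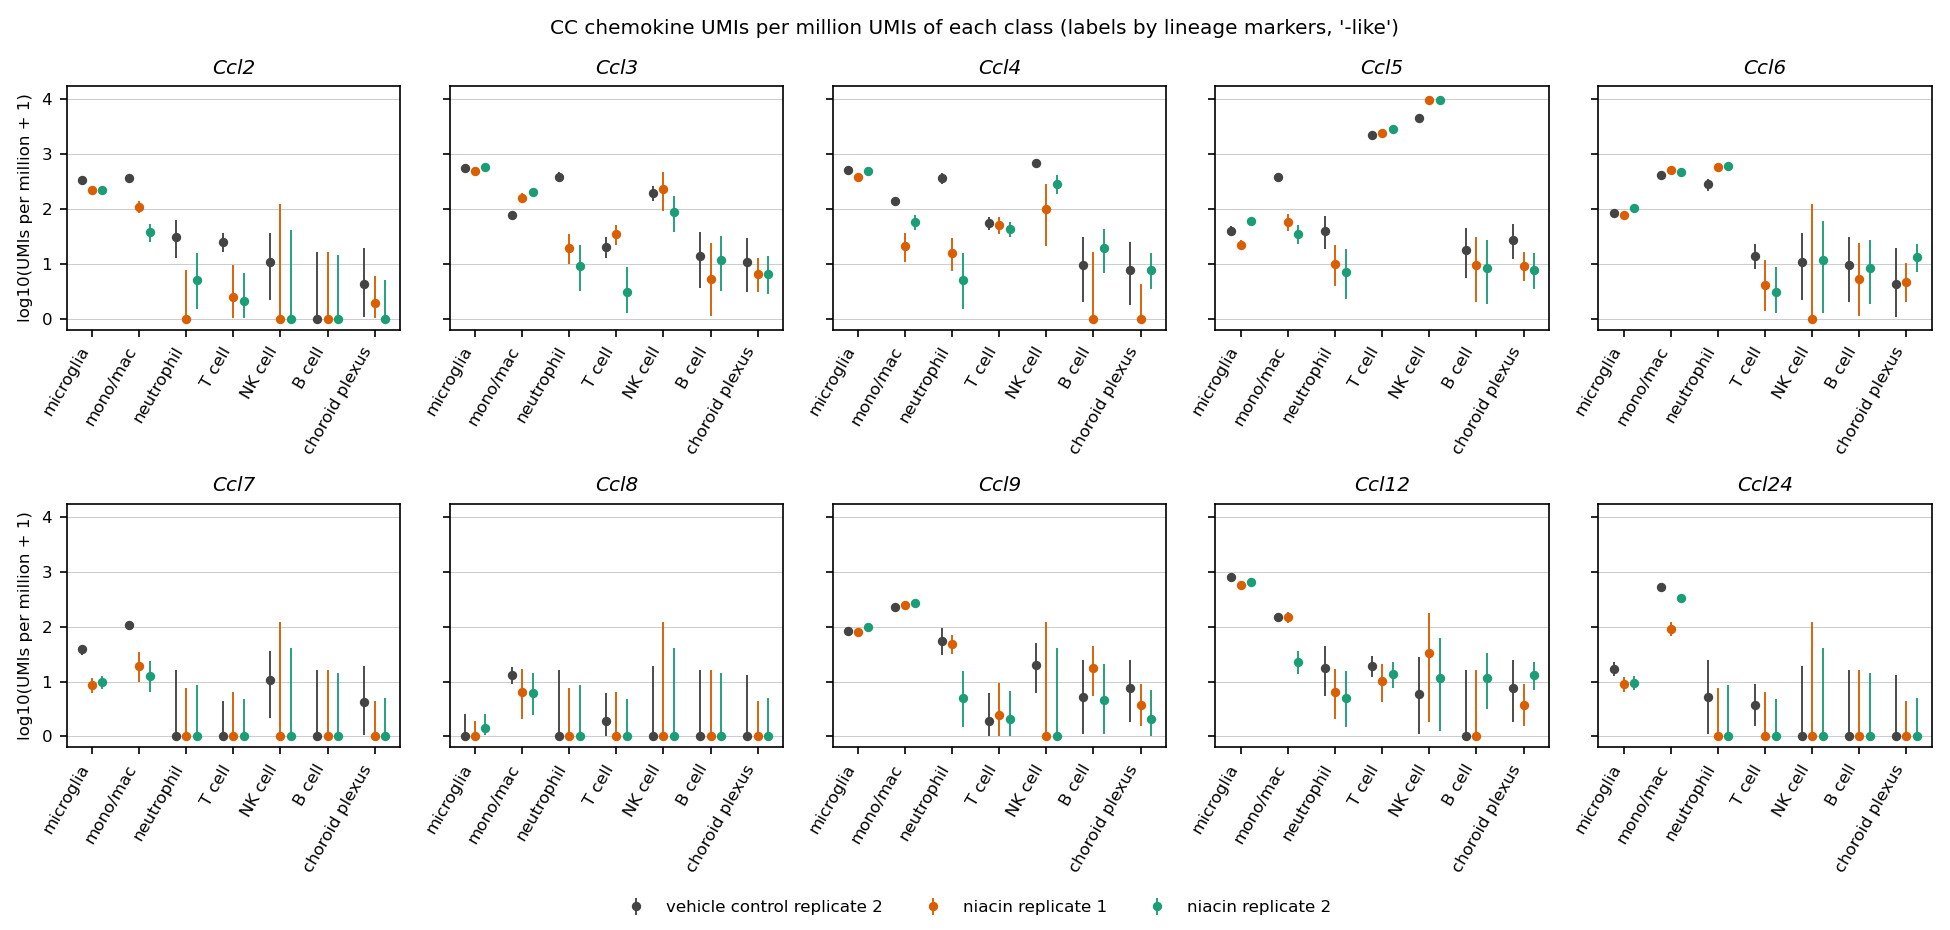
Level of each CC chemokine (log10 of CPM plus 1) in 7 cell classes, with a point per library and exact 95% Poisson intervals as bars, which cover counting error only. Leaving aside natural killer cell-like cells, the mean of *Ccl2*, *Ccl3*, *Ccl4* and *Ccl12* is highest in microglia-like cells, *Ccl6* and *Ccl9* are high in neutrophil-like or monocyte/macrophage-like cells, *Ccl24* is highest in monocyte/macrophage-like cells, and *Ccl5* stands at 2184 to 9626 CPM in T and natural killer cell-like cells.

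The levels were compared between neighbouring classes in their order with edgeR's quasi-likelihood test on the sums per library and class, with the library as a block and p-values adjusted over all 9925 genes tested. The p-values measure only the spread between these 3 pools. The order covers the 6 classes for which no library had under 10 cells, and it was set by the mean CPM of the same counts. In it, 16 of 45 neighbouring pairs tested differed. Of all genes, 13.4% to 65.4% differed in either direction between the classes of such a pair. For *Ccl4*, microglia-like cells exceeded neutrophil-like cells by 2.19 ± 0.61 (log2 fold change ± SE, adjusted p = 0.00569), a comparison in which 46.3% of all genes differed in either direction. The next neighbours for *Ccl4* did not differ beyond their spread, neutrophil-like against monocyte/macrophage-like cells (adjusted p = 0.50) or the latter against T cell-like cells (0.39 ± 0.62, adjusted p = 0.67). In that last comparison of classes 36.6% of genes differed, among them *Ccl5*, lower in monocyte/macrophage-like cells by 4.40 ± 0.57 on the log2 scale (adjusted p = 1.79e-06), and *Ccl12*, higher there by 2.99 ± 0.52 (adjusted p = 8.25e-05). *Ccl3* was higher in neutrophil-like than in T cell-like cells by 2.99 ± 0.80 (adjusted p = 0.00505, 37.9% of genes differing), although its 2 niacin values of 18.0 and 8.11 CPM were within the T cell-like range of 2.08 to 33.1 CPM. For *Ccl9*, microglia-like and neutrophil-like cells did not differ beyond their spread (0.71 ± 0.38, adjusted p = 0.13). All 10 members kept their highest class of the 6 with the deepest copies of the shared barcodes alone, where the copies left out held 3.57% of the UMIs. In that setting the highest class of *Ccl2* and *Ccl6* did not pass against the next (adjusted p = 0.0565 and 0.18). *Ccl7* and *Ccl8* were not tested there.

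Microglia are the resident macrophages of the brain, and they were compared with cells of the monocyte lineage as microglia-like against monocyte/macrophage-like cells. Of the 9 members tested (*Ccl8* had too few counts), 3 were higher and 5 lower in microglia-like cells, against 22% of all genes higher and 22.4% lower. *Ccl4* was higher by 2.83 ± 0.58 (log2, adjusted p = 0.00041), *Ccl12* by 2.55 ± 0.43 (adjusted p = 4.46e-05) and *Ccl3* by 1.69 ± 0.60 (adjusted p = 0.0257). The call for *Ccl3* was lost with DESeq2 (adjusted p = 0.12) and when cells with a shared barcode were left out (adjusted p = 0.40). *Ccl24* was lower by 4.85 ± 0.34 (adjusted p = 3.32e-09), *Ccl6* by 2.61 ± 0.37 (adjusted p = 5.12e-06), *Ccl5* by 1.80 ± 0.54 (adjusted p = 0.00971), *Ccl9* by 1.67 ± 0.29 (adjusted p = 6.62e-05) and *Ccl7* by 1.36 ± 0.34 (adjusted p = 0.00426). *Ccl2* differed by 0.97 ± 0.40 and did not pass the test (adjusted p = 0.0555). The vehicle library decided 3 of these results. Without it *Ccl2* passed (1.60, adjusted p = 2.5e-09), *Ccl7* did not (-0.85, adjusted p = 0.20), and the difference of *Ccl5* was -0.27 (adjusted p = 0.54). With the deepest copies alone *Ccl5* was at -1.23 (adjusted p = 0.25). The median difference of the tested members was -1.36, against 0.07 over all genes.

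Neutrophil-like cells were compared with monocyte/macrophage-like cells in the same fit. None of the 9 tested members was higher and 6 were lower, against 11% of all genes higher and 14.3% lower. At an unadjusted p under 0.05, edgeR likewise gave 0 members higher, and DESeq2 gave 0. The members that were lower were *Ccl24* (-7.70 ± 0.67, adjusted p = 2.55e-07), *Ccl2* (-3.68 ± 0.66, adjusted p = 0.000328), *Ccl12* (-3.19 ± 0.68, adjusted p = 0.00125), *Ccl5* (-2.62 ± 0.69, adjusted p = 0.00732) and *Ccl9* (-2.38 ± 0.37, adjusted p = 5.20e-05), together with *Ccl7*. *Ccl7* had 0 UMIs in neutrophil-like and 258 in monocyte/macrophage-like cells of all libraries, at least 30.9-fold lower when 3 UMIs over the group stand for the count of 0. The vehicle library held 239 of those UMIs, and without it the bound was 5.02-fold. The call of *Ccl5* was lost with the deepest copies alone (-2.19, adjusted p = 0.13). For *Ccl8*, with 0 against 34 UMIs, that bound was 4.07-fold, or 1.85-fold without the vehicle library, and no test was made. *Ccl6* (0.69 ± 0.36, adjusted p = 0.17), *Ccl4* (0.64 ± 0.63, adjusted p = 0.50) and *Ccl3* (-0.27 ± 0.70, adjusted p = 0.84) did not pass. For these members the vehicle library decided the value: without it *Ccl6* was higher in neutrophil-like cells by 1.16 and *Ccl3* lower by 2.80 on the log2 scale, both past the threshold, and the value of *Ccl4* was -1.002. The median over the tested members was -2.62 against -0.23 over all genes.

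**Figure D2:**
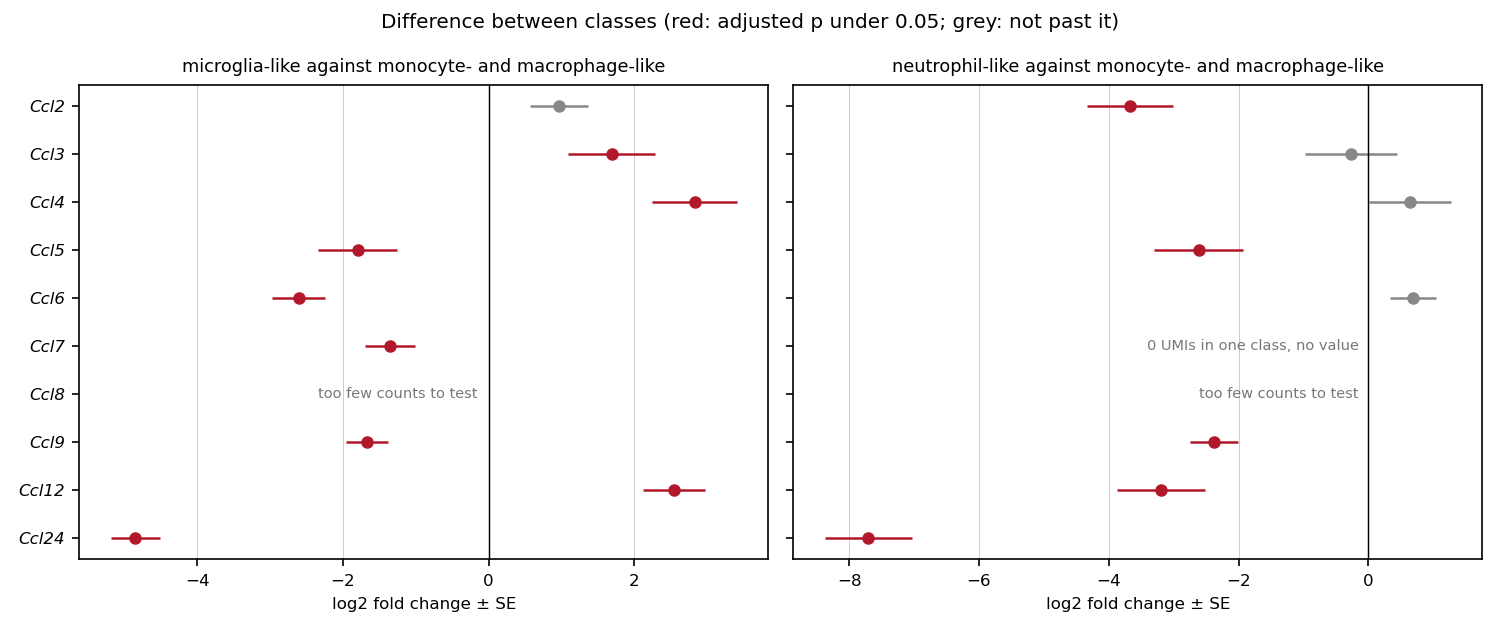
Log2 fold change with its standard error of each CC chemokine between myeloid classes, from edgeR fits of sums over 3 libraries, with red points past an adjusted p of 0.05 and grey points not past it. In microglia-like cells *Ccl3*, *Ccl4* and *Ccl12* lie to the right and *Ccl5*, *Ccl6*, *Ccl7*, *Ccl9* and *Ccl24* to the left, while in neutrophil-like cells no red point lies to the right.

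In natural killer cell-like against T cell-like cells, a class pair that met a minimum of 5 but not of 10 cells in each library, 1 of 9 tested members was higher and 0 were lower, against 1.47% and 1.3% of 8893 genes. *Ccl4* was at 691, 96.6 and 279 CPM in natural killer cell-like and at 53.5, 49.6 and 41.7 CPM in T cell-like cells, without overlap, and was higher by 2.37 ± 0.67 (adjusted p = 0.0405). The second of those values came from 3 UMIs in 9 cells. *Ccl3* (2.84 ± 0.88, adjusted p = 0.073) and *Ccl5* (1.34 ± 0.51, adjusted p = 0.20) did not pass, although every natural killer cell-like value of both lay above every T cell-like value. The calls depended on the setting, with 3 members higher and 0 lower at an unadjusted p under 0.05 and 0 in both directions by DESeq2. *Ccl4* did not pass without niacin replicate 2 (2.31, adjusted p = 0.061), while *Ccl3* passed with any 1 library left out (2.57 to 3.48) and *Ccl5* without the vehicle library (1.46, adjusted p = 0.0004).

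CC chemokine counts were uneven over cells. After each cell was thinned to 1000 UMIs, *Ccl12* was detected in 96 of 374 microglia-like cells (25.7%) in the vehicle library, 231 of 809 (28.6%) in niacin replicate 1 and 241 of 871 (27.7%) in niacin replicate 2. The same class had a *Ccl3* UMI in 18.7%, 18.8% and 21.8% of cells, *Ccl4* in 16.3%, 14.7% and 14.8%, and *Ccl2* in 16.3%, 12.4% and 11.9%. In choroid plexus-like cells at that depth, *Ccl12* was found in 0%, 0% and 1.92% and *Ccl3* in 0%, 2.31% and 0%. The 5% of microglia-like cells with the most UMIs of a gene held 61.2% to 68.9% of *Ccl4* UMIs, 51.8% to 58.5% of *Ccl3*, 53.5% to 65.9% of *Ccl2* and 42.6% to 52.5% of *Ccl12*. That share was higher for the scarcer *Ccl6* (73.0% to 84.6%) and *Ccl9* (74.1% to 100%), so by itself it does not show concentration. The variance over cells was 3.804 to 10.2 times the mean for *Ccl4*, 3.33 to 4.42 times for *Ccl3* and 0.95 to 1.13 times for *Ccl9*. The last is close to what counting alone gives. *Ccl5* was detected in 38.1%, 38.8% and 42.2% of T cell-like cells, and *Ccl6* in 16.4%, 32.0% and 35.0% of monocyte/macrophage-like cells.

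Because *Ccl3* and *Ccl4* varied over microglia-like cells by more than counting alone gives, these cells were split by *Ccl3*. Microglia-like cells with a *Ccl3* UMI in the thinned counts (70, 152 and 190 cells) were set against those without (304, 657 and 681). This split was chosen after the values were seen, and *Ccl3* itself was used to make it. *Ccl4* was at 1200.0, 1072 and 1347 CPM in cells with a *Ccl3* UMI and at 181, 152 and 138 CPM in the others, a difference of 2.99 ± 0.13 (log2, adjusted p = 5.98e-32). A *Ccl4* UMI was found in 42.9%, 33.6% and 32.1% of the former and in 10.2%, 10.4% and 9.99% of the latter. *Ccl2* was at 414, 388 and 400.0 CPM against 237, 146 and 147 CPM (1.28 ± 0.16, adjusted p = 2.50e-08). *Ccl12* was at 1257, 480.3 and 858 CPM against 493, 533 and 524 CPM (0.61 ± 0.13, adjusted p = 0.00604), so that in niacin replicate 1 it was lower in the cells with *Ccl3*, and its call was lost without the vehicle library or without niacin replicate 2. *Ccl6* (0.77, adjusted p = 0.42) and *Ccl9* (0.25, adjusted p = 0.97) did not pass. Among the 5 members tested beside *Ccl3*, 3 were higher and 0 lower, against 0.349% of 4297 genes higher, *Ccl3* among them, and 0.0698% lower. Besides *Ccl3* and these 3 members, 11 genes were higher in these cells. They included *Cxcl10*, a chemokine of the CXC family, by 3.18, and *Tnf*, a cytokine, by 1.17 on the log2 scale. The rest were *Cdkn1a* (1.24), *Apoe* (0.97), *H2-Ab1* (0.93), *H2-Aa* (0.93), *Hif1a* (0.93), *Ier3* (0.91), *Cd74* (0.82), *Id2* (0.80) and *Slc15a3* (0.58). All genes higher, members included, numbered 14 without the vehicle library, 13 without niacin replicate 1 and 3 without niacin replicate 2. Those 3 included *Ccl2* and *Ccl4*, so most of the 11 genes did not pass without niacin replicate 2. *H2-Ab1*, at 643 CPM with and 711 CPM without a *Ccl3* UMI, was not higher in the vehicle library. *Tnf* was higher in all 3 libraries, but *Cxcl10*, at 357, 6.58 and 184 CPM against 52.6, 9.13 and 5.87 CPM, was not higher in niacin replicate 1. The 3 genes that were lower encode globins, and niacin replicate 1 carried that difference. *Hba-a1* (-1.31) was at 14.3, 224 and 147 CPM with and at 9.87, 915 and 147 CPM without a *Ccl3* UMI. Of 14 tested genes of an immediate early and dissociation response list, 0 passed, with 1 higher and 1 lower at an unadjusted p under 0.05. *Ier3*, an immediate early response gene outside that list, was higher, at 157, 349 and 337 CPM against 118, 195 and 157 CPM.

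**Figure D3:**
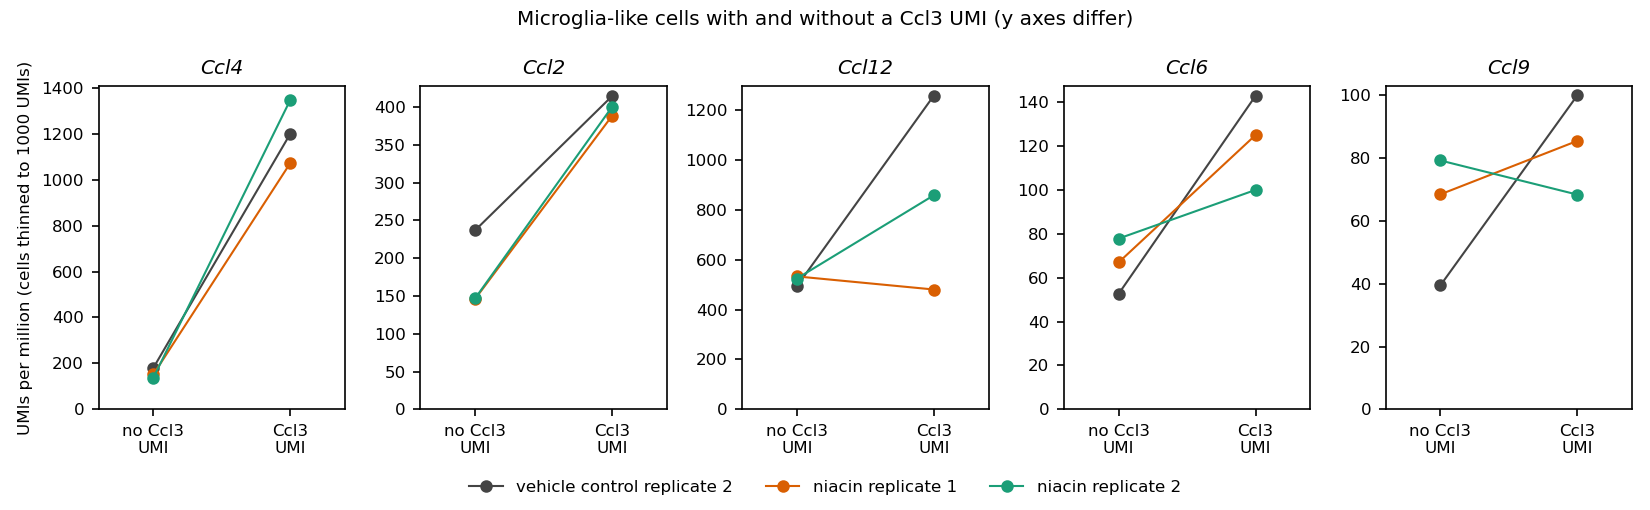
CPM of CC chemokines in microglia-like cells with and without a *Ccl3* UMI after thinning to 1000 UMIs, with lines joining the values of a library and a separate y axis per gene. *Ccl4* and *Ccl2* rise in all 3 libraries, *Ccl12* rises in the vehicle library and niacin replicate 2 and is lower in niacin replicate 1.

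*Ccl5* was then compared within T cell-like cells, between those with *Cd8a* or *Cd8b1* and no *Cd4* (43, 73 and 66 cells) and those with *Cd4* and neither of the others (64, 41 and 49 cells). *Ccl5* was at 2411, 3678 and 5064 CPM in the former and at 634, 371 and 779 CPM in the latter, without overlap and higher by 2.67 ± 0.17 (log2, adjusted p = 2.43e-10). *Ccl4* was at 70.7, 94.7 and 84.0 CPM against 62.9, 5.30 and 7.11 CPM, higher by 1.68 ± 0.45 (adjusted p = 0.0294), a call that was lost without niacin replicate 2 (1.21, adjusted p = 0.37). These were the 2 members with enough counts to test, both higher, where 1.95% of 4457 genes were higher and 2.33% lower. The immediate early and dissociation response list moved in the same comparison, with 3 of 12 tested genes lower (*Btg2*, *Fosb* and *Dusp1*) and a median of -0.45, and its part in the members' values was not tested. T cell-like cells with neither gene detected had 3602, 1985 and 1336 CPM of *Ccl5*, between the others in the niacin libraries and above both in the vehicle library. Natural killer cell markers summed to 1266, 403 and 354 CPM over all T cell-like cells, and their part in these values was not tested.

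Within the monocyte/macrophage-like class, subclasses were set by at least 2 of their own markers. Classical monocyte-like cells numbered 123, 27 and 37, nonclassical monocyte-like cells 18, 55 and 45, and macrophage-like cells with *Arg1* and its companions 47, 10 and 12 in the vehicle library and niacin replicates 1 and 2. *Ccl24* was at 961, 1637 and 829 CPM in the *Arg1* cells, at 185, 103 and 66.2 CPM in classical and at 7.81, 2.55 and 19.1 CPM in nonclassical monocyte-like cells. The niacin values in *Arg1* cells rested on 15 and 24 UMIs. In niacin replicate 2, 1 cell outside the *Arg1* cells held 186 of the 253 *Ccl24* UMIs of the whole class. Most of the *Ccl24* UMIs of that library's class thus lay outside *Arg1* cells. *Ccl9* was at 309, 578 and 430.1 CPM in classical and 109, 173 and 155 CPM in nonclassical cells, and the ranges did not overlap. *Ccl2* was at 526, 77.0 and 52.9 CPM in classical and 15.6, 45.8 and 9.55 CPM in nonclassical cells. *Ccl6* was at 271, 642 and 503 CPM in classical and 258, 506 and 418 CPM in nonclassical cells, close to each other in each library. *Ccl12* was not detected in any of the 18, 55 and 45 nonclassical cells.

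These subclasses are where copies of shared barcodes weighed most. Classical and *Arg1* cells of the niacin libraries had a median of 797 to 842 UMIs, against 7822 and 12632 in the vehicle library, and with the deepest copies alone 3 and 10 classical and 0 and 4 *Arg1* cells were left in niacin replicates 1 and 2. Nonclassical cells kept 53 of 55 and 43 of 45. With those copies alone *Ccl24* in Arg1 cells was at 961 CPM in the vehicle library and at 128 CPM (3 UMIs) in niacin replicate 2, and in classical cells at 186, 51.0 and 0 CPM. *Ccl2* in classical cells was then at 526, 51.0 and 15.4 CPM, and *Ccl9* there at 305, 680.2 and 471 CPM, above its 109, 174 and 151 CPM in nonclassical cells. The part of these copies in the niacin levels was not tested, and no test between subclasses was made. Of 2 border-associated macrophage-like cells in niacin replicate 1, the counts included 74 UMIs of *Ccl12*, 45 of *Ccl3* and 23 of *Ccl2*.

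**Figure D4:**
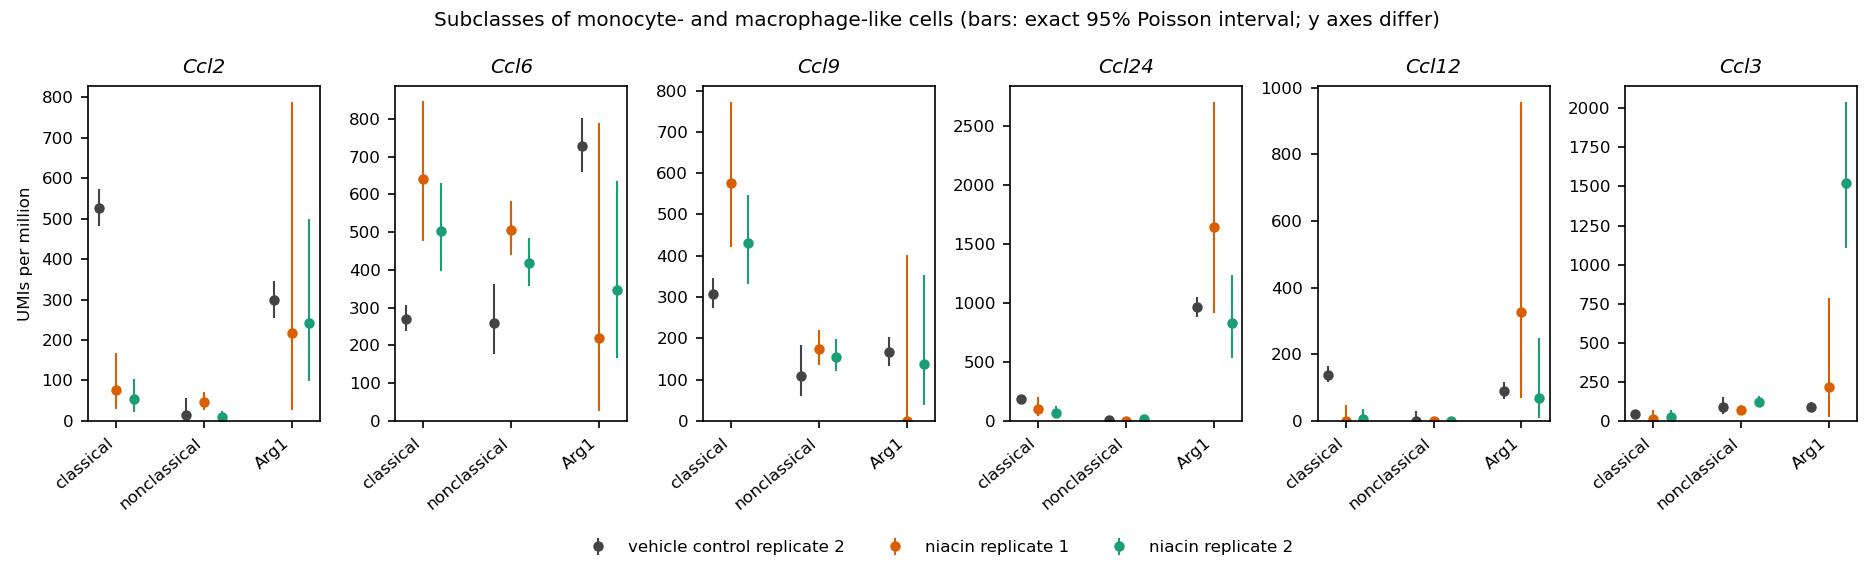
CPM of 6 CC chemokines in 3 subclasses of monocyte/macrophage-like cells, with a point per library and exact 95% Poisson intervals, which cover counting error only. *Ccl24* is highest in *Arg1* cells of every library and *Ccl9* is higher in classical than in nonclassical monocyte-like cells, while the niacin points of *Arg1* cells rest on 10 and 12 cells with a median of 842 and 839 UMIs.

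Neutrophil-like cells were split by 2 or more of *Camp*, *Ngp* and *Ltf*, granule genes of immature neutrophils, which 36.3%, 66.3% and 73.2% of the class expressed in the order of the libraries. In the cells without them *Ccl6* was at 472, 2439 and 2342 CPM, and in the cells with them at 9.80, 120.2 and 252 CPM, lower in each library. *Ccl3* in the cells without them was at 661, 56.7 and 0 CPM and *Ccl4* at 610.1, 56.7 and 11.8 CPM, so that the vehicle library remained highest within these cells. With the deepest copies alone the cells with these genes made up 20.5%, 53.6% and 68.2% of the class. *Ccl6* was then at 473, 2442 and 2422 CPM without them, and *Ccl3* at 672, 57.0 and 0 CPM.

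Niacin was compared with vehicle within classes. With 1 control library there is no spread between controls, so no test was made, the ratios carry exact intervals for counting error only, and a change of at least 2-fold in both niacin libraries was counted. In microglia-like cells, 0 of the 7 members with enough counts reached that size in either direction, where 0.787% of 6605 genes were higher and 1.89% lower. *Ccl2* was at 0.664 (95% interval 0.604 to 0.732) and 0.648 (0.589 to 0.712) of its vehicle level in niacin replicates 1 and 2, and *Ccl12* at 0.708 (0.666 to 0.752) and 0.794 (0.750 to 0.842), both lower in each library by less than 2-fold. *Ccl3* was at 0.891 and 1.06 and *Ccl4* at 0.766 and 0.993 of the vehicle level. *Ccl7*, at 0.203 and 0.234, had a mean under 20 CPM and was not counted. Erythroid markers summed to 24.6 CPM in microglia-like cells of the vehicle library and to 2414 and 639 CPM in the niacin libraries, and their part in these ratios was not tested.

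In monocyte/macrophage-like cells, 1 of 9 members was higher and 4 were lower by 2-fold or more in both niacin libraries, against 5.1% of 5917 genes higher and 7.96% lower. *Ccl3* was at 2.05 (1.57 to 2.68) and 2.67 (2.13 to 3.34) times its vehicle level. In niacin replicate 1, 45 of its 86 UMIs were in 1 cell, and without cells that also held markers of a second class no member was higher by that size in both. *Ccl2* was at 0.301 (0.227 to 0.392) and 0.103 (0.0679 to 0.150), *Ccl5* at 0.149 (0.100 to 0.213) and 0.0898 (0.0583 to 0.133), *Ccl4* at 0.144 (0.0709 to 0.260) and 0.404 (0.287 to 0.558), and *Ccl7* at 0.171 (0.0809 to 0.320) and 0.111 (0.0501 to 0.214). In the vehicle library a single cell held 136 of 313 UMIs of *Ccl4*, 154 of 239 of *Ccl7* and 212 of 801 of *Ccl2*, for each gene taken alone. The intervals do not cover this, and the ratios without those cells were not computed. *Ccl24* was lower by 2-fold in niacin replicate 1 (0.175) but not in niacin replicate 2 (0.637), and *Ccl12* in niacin replicate 2 (0.150) but not in niacin replicate 1 (1.00). *Ccl6* (1.24 and 1.11) and *Ccl9* (1.11 and 1.21) stayed within 1.5-fold. The make-up of the class moved with the treatment, with nonclassical cells at 6.38% of it in the vehicle library and at 43.7% and 35.2% in the niacin libraries, or at 6.52%, 81.5% and 58.1% with the deepest copies alone. Its part in these ratios was not tested. Without the cells whose barcode occurred in another library, *Ccl2* was at 0.888 and 0.164, *Ccl3* at 5.92 and 6.76, and *Ccl12* at 11.3 and 0.784 of the vehicle level. *Ccl4* was then at 0.453 and 1.198 and *Ccl7* at 4.13 and 0.353. *Ccl2*, *Ccl4* and *Ccl7* were no longer lower by 2-fold in both niacin libraries, and the 2 members that were lower were *Ccl5* and *Ccl24*.

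In neutrophil-like cells, *Ccl6* was higher, at 2.04 (1.56 to 2.71) and 2.22 (1.69 to 2.94) times its vehicle level, and *Ccl3* and *Ccl4* were lower, at 0.047 and 0.0211 and at 0.0407 and 0.0114. These were 1 higher and 2 lower of 4 members, against 2.26% of 4559 genes higher and 24.8% lower, and the share of *Camp*, *Ngp* and *Ltf* cells given above differed between the libraries in the same class. With the deepest copies alone *Ccl6* was at 1.96 and 2.14, no longer past 2-fold in both, and without shared barcodes at 5.14 and 4.202.

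**Figure D5:**
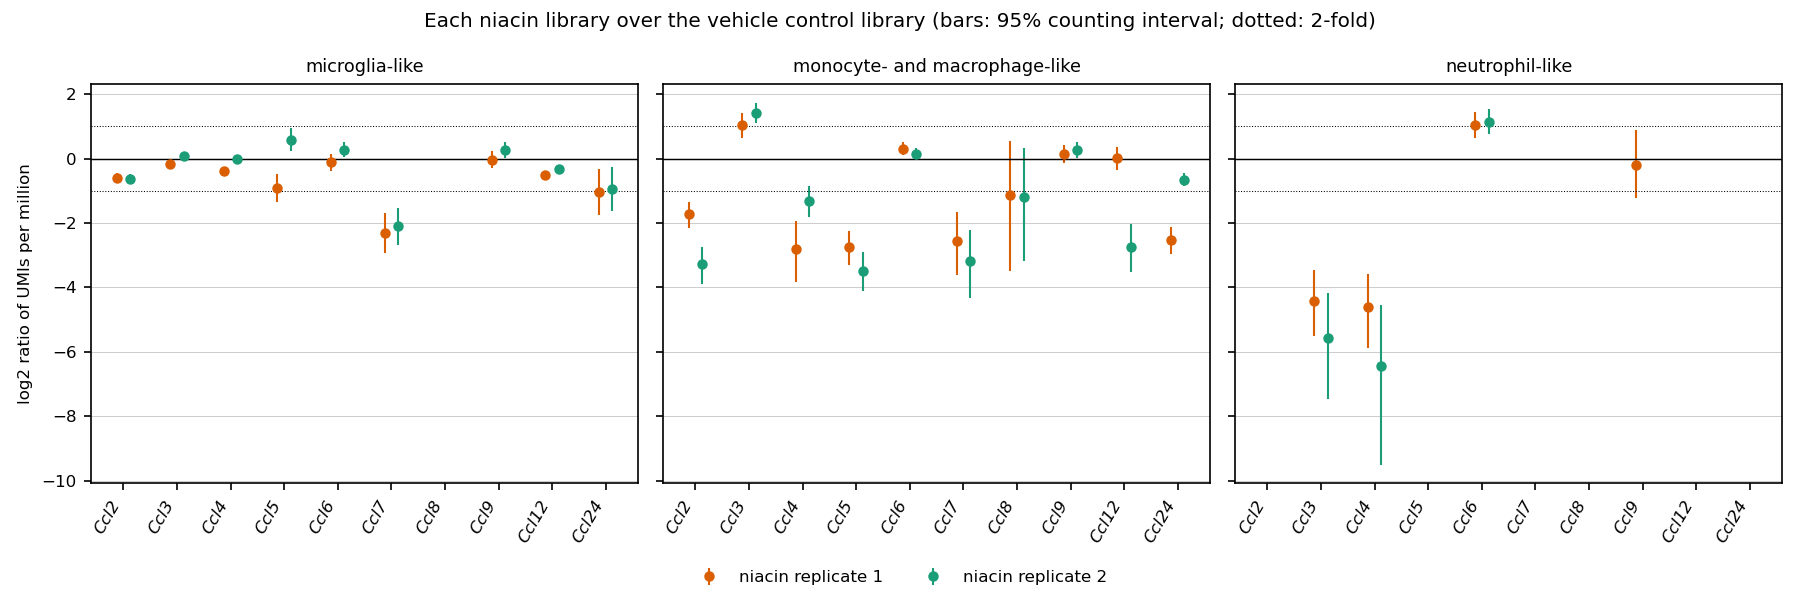
Log2 ratio of CPM in each niacin library to the vehicle library for each CC chemokine with at least 20 UMIs over the pair and none at 0, with 95% intervals for counting error and dotted lines at 2-fold. In monocyte/macrophage-like cells *Ccl3* lies above and *Ccl2*, *Ccl4*, *Ccl5* and *Ccl7* below the 2-fold lines in both niacin libraries, and *Ccl3* and *Ccl4* lie lowest in neutrophil-like cells.

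The receptors of these ligands were read from a list of 14 CC receptors, of which 6 had enough counts. *Ccr2*, the receptor of *Ccl2*, *Ccl7* and *Ccl12*, was at 18.2, 4.98 and 4.90 CPM in microglia-like and at 995, 417 and 654 CPM in monocyte/macrophage-like cells (-6.54 on the log2 scale, adjusted p = 3.38e-09). *Ccr1*, the receptor of *Ccl6* and *Ccl9*, was lower in microglia-like cells (-3.79, adjusted p = 4.19e-07) and higher in neutrophil-like cells (2.11, adjusted p = 0.000484) than in monocyte/macrophage-like cells. Of 11 further CC ligands, 2 (*Ccl25* and *Ccl27a*) could be tested and 0 passed in any of the class comparisons by edgeR, also at an unadjusted p under 0.05. An immediate early and dissociation response list, whose genes can respond to tissue handling, moved with the microglial members: 11 of its 16 genes were higher and 2 lower in microglia-like than in monocyte/macrophage-like cells, with a median of 1.27, and its part in the members' levels was not tested.

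Genes with the profile most like that of 7 members over the 18 sums of 6 classes and 3 libraries were named as a description, from 6343 genes. The points share libraries and cells, so no test is attached. They were *Adgre1* (r = 0.94) for *Ccl3*, *Ski* (0.96) for *Ccl4*, *Klrk1* (0.98) for *Ccl5*, *Igsf6* (0.98) for *Ccl6*, *Clec4a3* (0.95) for *Ccl9*, *Tnfrsf11a* (0.96) for *Ccl12* and *Fn1* (0.96) for *Ccl24*. *Ccl7* and *Ccl8* had a mean under 20 CPM and were not ranked.

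Promoter sequence from RefSeq (GRCm38.p6) was matched for 5 members, and those of *Ccl12* and *Ccl3*, highest in microglia-like cells, and of *Ccl9*, highest in monocyte/macrophage-like cells, are shown as the 150 bases before the start site. Capitals mark the letters of a TATA box (TATAAA), a PU.1 core (GAGGAA), an AP-1 site (TGANTCA) and a relaxed NF-kB site on either strand, where TATAAA on one strand can overlap itself on the other.
*Ccl12* (chr11:82101695-82101844, plus strand): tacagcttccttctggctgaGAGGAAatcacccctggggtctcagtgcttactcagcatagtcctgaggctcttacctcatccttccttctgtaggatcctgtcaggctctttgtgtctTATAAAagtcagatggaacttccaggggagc
*Ccl3* (chr11:83649379-83649528, minus strand): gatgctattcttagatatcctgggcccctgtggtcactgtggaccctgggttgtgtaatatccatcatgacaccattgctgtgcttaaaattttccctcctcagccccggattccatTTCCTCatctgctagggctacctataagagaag
*Ccl9* (chr11:83578637-83578786, minus strand): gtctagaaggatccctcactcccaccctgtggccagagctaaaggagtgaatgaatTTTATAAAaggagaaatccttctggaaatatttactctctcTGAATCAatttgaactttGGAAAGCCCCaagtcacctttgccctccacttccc
Of 32851 promoters of the same length, 7.57% hold TATAAA, 14.5% GAGGAA, 4.24% TGANTCA and 35.4% the relaxed NF-kB site. The *Ccl12* window holds TATAAA 31 to 26 and GAGGAA 130 to 125 bases before the start, the *Ccl3* window GAGGAA on the other strand 33 to 28 bases before it, and the *Ccl9* window all but GAGGAA. The *Ccl8* window holds TATAAA and the *Ccl6* window none of the letters searched. These are matches of letters and no measurement of binding.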

How the data were processed

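The authors made the deposited UMI counts, per the labels, from Chromium 3′ libraries with Cell Ranger 3.1 and STAR on mm10, and applied no normalization to them. Cells with fewer than 200 genes or over 20% mitochondrial counts were removed, as in the study's methods. A class needed at least 3 of its markers, out of 100 markers in 10 lists, and more than of any other class, and erythroid-like cells needed 20% hemoglobin counts. A subclass needed 2 markers. No doublet caller was run, and 322 cells with 3 or more markers of a second class were left out as an alternative. The members, lists and tests were chosen with earlier results of these data known.

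Class sums of each library were compared with edgeR 4.0.16 (quasi-likelihood test, TMM, filterByExpr, library as a block, Benjamini-Hochberg over all genes tested, called under 0.05) in R 4.3.3. DESeq2 1.42.0 was an alternative. The fit held the classes with at least 10 cells in each library, and the natural killer cell-like comparison a minimum of 5, set after the data were seen. On simulated counts for microglia-like against monocyte/macrophage-like cells, 93% of 200 4-fold changes among 9142 genes were recovered, with 2.1% false calls. The simulation gave all genes the same spread, had no library effect and planted changes only in genes with enough counts. Its rates therefore check the procedure and need not hold for these data. Shares were read after thinning to 1000 UMIs. Intervals are 95% exact Poisson or binomial, a count of 0 allows 3 counts, and both cover counting error only. Niacin ratios needed a mean of 20 CPM to be counted. Genes named beside the members come from fixed lists of 11 CC ligands, 14 receptors and 16 response genes, and from the 3 genes of highest Pearson r over log2(CPM + 10), of which the first is printed for 7 members; genes named in the *Ccl3* comparison were chosen after their values were seen. Same-numbered libraries of the groups were not treated as paired, since no label ties the numbers. Python 3.11.15, numpy 2.4.6, scipy 1.17.1 and pandas 2.3.3 were used. Clustering and ligand-receptor inference were not run. A few items are not reported here.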

Additional observations from a re-analysis of the deposited data

Results flagged for a closer look

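For 3 members, the order of 2 classes in the vehicle library was the opposite of that in both niacin libraries. The difference between the treatments was not tested in any of them, since there is 1 control library. The CPM of *Ccl2* in microglia-like over that in monocyte/macrophage-like cells was 0.939 in the vehicle library and 2.07 and 5.91 in niacin replicates 1 and 2. For *Ccl3*, neutrophil-like over monocyte/macrophage-like cells gave 5.08 in the vehicle library and 0.116 and 0.0402 in the niacin libraries. The same ratio for *Ccl6* was 0.667 in the vehicle library and 1.10 and 1.34 in the niacin libraries. Cells with 2 or more of *Camp*, *Ngp* and *Ltf* made up 36.3% of neutrophil-like cells in the vehicle library and 66.3% and 73.2% in the niacin libraries (20.5%, 53.6% and 68.2% with the deepest copies alone), and their part in the last 2 ratios was not tested.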

How the results depend on the processing

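Of the log2 fold changes of members under the alternatives, 399 kept direction and side of the threshold, 26 passed it newly, 24 lost it and 14 turned direction. For microglia-like against monocyte/macrophage-like cells, the 5 members lower became 3 with unshared barcodes, with the deepest copies, with at least 500 genes and with at least 2000 UMIs, and 3 to 5 with each library left out. In all these counts a member with too few counts to test was taken as not called. *Ccl7* was not tested with the deepest copies, and it had a value in 13 alternatives where *Ccl6* had one in 17. For neutrophil-like against monocyte/macrophage-like cells, the count of members higher was 1 with unshared barcodes, 2 without *Camp*, *Ngp* and *Ltf* cells and 0 to 1 with each library left out, and that of members lower was 3 with unshared barcodes. There, *Ccl3* turned to 0.22 without cells of a second class, to 0.58 without *Camp*, *Ngp* and *Ltf* cells, and ranged from -2.80 to 0.78 with each library left out. *Ccl4* turned to -0.18 without cells of a second class and ranged from -1.002 to 1.14.

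For natural killer cell-like against T cell-like cells, the 1 member higher became 0 with DESeq2 and with the deepest copies, 3 with no filter on genes, with the 2 classes alone and without cells of a second class, 2 with unshared barcodes, and 1 to 3 with each library left out. Members with few counts turned direction: *Ccl2* to 0.28 without cells of a second class and 0.13 with unshared barcodes, *Ccl6* to -0.13 with at least 4 markers, and *Ccl24* to 2.25 with DESeq2. With each library left out, *Ccl6* ranged from -0.19 to 1.26, *Ccl9* from -3.13 to 3.42 and *Ccl12* from -1.55 to 0.24. The members higher in T cell-like cells with *Cd8a* or *Cd8b1* were 1 to 2 with each library left out.

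Without the library as a block, the pairing of class sums within a library is dropped: *Ccl3* in neutrophil-like cells turned to 0.061, the member higher in natural killer cell-like cells was lost (0), and in microglia-like cells *Ccl3* (adjusted p = 0.060) and *Ccl7* (adjusted p = 0.069) no longer passed. No paired analysis was possible for niacin against vehicle because that comparison comes from no test.

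For the niacin counts, microglia-like members lower were 1 without cells of a second class and 1 with either niacin library left out, against 0. In monocyte/macrophage-like cells, members higher were 0 without cells of a second class and members lower 2 with unshared barcodes. In neutrophil-like cells, members higher were 0 with at least 2000 UMIs and with the deepest copies, and members lower 3 to 4 with a niacin library left out. With unshared barcodes, 4 ratios crossed 1: *Ccl5* in microglia-like cells (0.371) and *Ccl9* (0.934) and *Ccl4* (1.198) in monocyte/macrophage-like cells in niacin replicate 2, and *Ccl7* there in niacin replicate 1 (4.13).

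The mean share of cells with a UMI moved with the depth of thinning. From 500 to 2000 UMIs it went from 18.0% to 41.6% for *Ccl12* (27.3% ± 1.48 SD at 1000, n = 3) and from 13.5% to 28.9% for *Ccl3* in microglia-like cells, from 15.6% to 46.6% for *Ccl6* in monocyte/macrophage-like cells and from 31.0% to 55.5% for *Ccl5* in T cell-like cells. Scaling changed the split of all genes. Neutrophil-like cells had 1090 genes higher and 1424 lower by TMM, and 614 and 3326 by total UMIs. Microglia-like cells had 2187 and 2221 by TMM, 2662 and 1686 by total UMIs and 2554 and 1954 by upper quartiles. Natural killer cell-like cells had 131 and 116 by TMM, 161 and 75 by total UMIs and 216 and 50 by DESeq2. For that class, upper-quartile scaling (an error of the tool) and a minimum of 2000 UMIs (too few cells) were not run. The causes of these changes were not tested. The main limits are 1 control library, the barcodes shared between libraries and class levels that rest on single cells.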

Other observations

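Basophil- or mast cell-like cells, too few for the comparisons (5, 32 and 38 cells in the vehicle library and niacin replicates 1 and 2), had 127, 562 and 1199.7 CPM of *Ccl2*, from 2, 64 and 146 UMIs. Their *Ccl3* was at 0, 35.1 and 830.0 CPM and their *Ccl4* at 255, 52.7 and 887 CPM. All 41 of their *Ccl7* UMIs in niacin replicate 1 came from 1 cell. Dendritic cell-like cells (11, 6 and 6 cells) had 55.1, 356 and 40.2 CPM of *Ccl6*, and 23 of the 25 UMIs of niacin replicate 1 were in 1 cell. Their *Ccl5* was at 207 CPM in the vehicle library and at 0 in both niacin libraries.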
